A study of Mus musculus with 8 samples.

Results

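Transcripts of 10 genes for the uptake, binding and activation of fatty acids were compared between control AML-12 cells and AML-12 cells overexpressing Gm47544. The genes are Cd36, Fabp1, Fabp5, Slc27a1, Slc27a2, Slc27a4, Acsl1, Acsl3, Acsl4 and Acsl5, taken by symbol from a table of 21983 genes. AML-12 is an established mouse hepatocyte line that was derived from an animal with a human TGF-alpha transgene, and both groups were grown in serum-supplemented medium. The series held 4 control libraries, labelled wild type and named for the lentiviral vector pLKO.1, and 4 that overexpressed the long non-coding RNA Gm47544, whose titles name no vector. The comparison asked which transcripts differed with Gm47544 overexpression, and the series title ties that RNA to the ubiquitination of apolipoprotein APOC3. Separate cultures are not stated for libraries of a group, and p-values therefore measure only their spread, which may be technical. Gm47544 itself was not analysed here, so its overexpression was not checked in these counts.

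Long-chain fatty acids enter liver cells with the help of membrane proteins, among them the scavenger receptor CD36 and the fatty acid transport proteins of the SLC27A family, several of which are also acyl-CoA synthetases. Inside the cell they are carried by small soluble fatty acid-binding proteins of the FABP family. Acyl-CoA synthetases, the ACSL enzymes at the endoplasmic reticulum, lipid droplets and mitochondria, join them to coenzyme A, which commits them to oxidation, storage or membrane lipids. In adult liver the transcripts best known for these steps are Fabp1, Slc27a2, Slc27a5 and Acsl1.

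Library totals ran from 11016907 to 18965662 counts, and all levels below are CPM, counts scaled to a fixed library total with trimmed-mean factors. Of 11520 genes that passed the count filter, 64.4% were called different between the groups (edgeR's quasi-likelihood test, Benjamini-Hochberg adjusted p under 0.05), 32.3% higher and 32.1% lower in the overexpression libraries. That background is the measure against which the genes here are read. Control library 3 stood apart from the other controls, at -24.1 on a first principal component that held 82.1% of the variance, where its fellow controls spanned -62.4 to -51.6 and the overexpression group 45.2 to 52.2. Hepatocyte markers were incomplete: Hnf4a was at 348.1 and 310.1 CPM on average in control and overexpression libraries, while Cyp2e1, Pck1 and Apoa2 had 1, 1 and 2 counts over all libraries and the biliary keratin Krt19 was at 2252 and 1701 CPM. The 14 hepatocyte markers summed to 1735 to 2176 CPM in controls and to 1105 to 1150 with overexpression, with Alb at 22.3 and 266.6 and Ttr at 1320 and 278.4, and the 5 biliary markers to 2786 to 4136 and 4472 to 5073. Within the biliary list Spp1 was higher with overexpression (942 and 2729 CPM), Krt19 and Sox9 (91.2 and 57.9 CPM) were called lower and Krt7 was not called. Epcam had 1 count over all libraries.

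Of the 10 genes, 7 passed the count filter, 2 had counts under it (Cd36 and Slc27a2) and Fabp1 had no count in any library. Among those 7, Acsl3 and Acsl4 rose, Fabp5, Slc27a4 and Acsl1 fell, and Slc27a1 and Acsl5 were not called. That is 5 of 7 (71.4%), beside 64.4% of all genes tested, a share near the background. The median log2 fold change of the 7 was 0.03, beside 0.000406 for all genes tested. The 4 control and 4 overexpression values did not overlap for Fabp5, Acsl1 and Acsl3, 3 of 7 beside 56.0% of all genes tested. Cd36, tested without the filter, was called higher at fewer than 20 counts in controls.

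**Figure D1:**
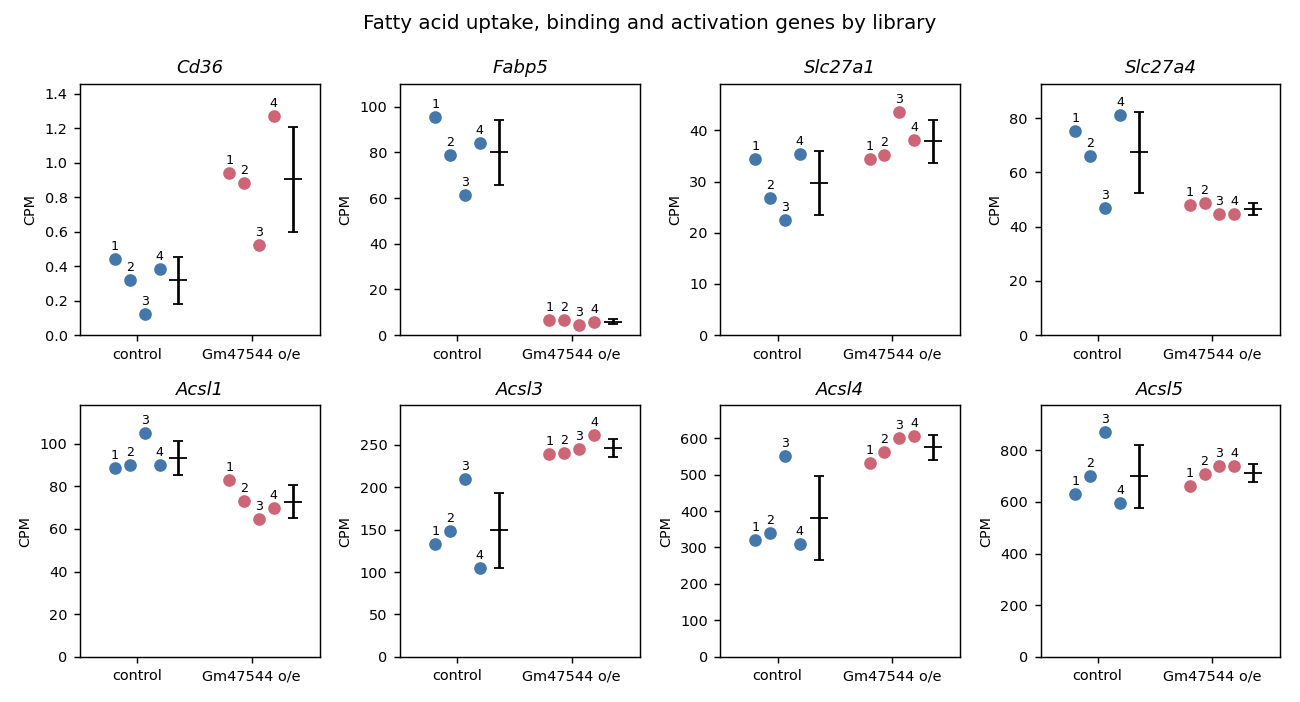
Level of each of the 8 genes with more than 1 count, in CPM on a linear axis from 0, with 1 numbered point per library and the mean ± SD of the 4 libraries of each group beside them. Fabp5 sits between 61.4 and 95.6 in controls and between 4.53 and 6.66 in overexpression libraries, and control library 3 lies toward the overexpression values for Acsl3, Acsl4 and Slc27a4.

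Among the uptake members, Cd36 and Slc27a2 were near the limit of detection, Slc27a4 fell by less than 2-fold and Slc27a1 was not called. Cd36, the scavenger receptor that takes up long-chain fatty acids, had 5, 6, 2 and 5 counts in the controls, in the order of libraries 1 to 4, against 11, 16, 6 and 17 with overexpression. Its level was 0.318 ± 0.138 against 0.903 ± 0.304 CPM (SD, n = 4), and every overexpression value lay above every control value. The pooled ratio was 2.99 at equal depth (95% exact binomial interval 1.72 to 5.45, counting error only). Without the count filter the log2 fold change was 1.51 (SE 0.50, edgeR adjusted p = 0.0135). The call was lost without overexpression library 4 (edgeR, adjusted p = 0.0596, log2 fold change 1.31). It was lost too with each library's fitted trend of centred log2 CPM on GC content removed (edgeR, adjusted p = 0.055). It was also lost with trends on gene length and GC content removed and the library number added to the model as a replicate block (adjusted p = 0.0597 by edgeR), within a range of 0.00727 to 0.0597 over 16 alternatives. Cd36 is also made by macrophages and endothelial cells, and their markers were measured beside it. The 8 macrophage markers summed to 30.3 to 36.3 CPM in controls and to 14 to 17.6 CPM with overexpression, with Adgre1 and Clec4f at 0 counts throughout. The sum was mostly Csf1r, which fell from 27.1 ± 2.46 to 10.2 ± 1.7 CPM (SD, n = 4), while Itgam had 10 counts against 63 (fitted log2 fold change 2.70 without the filter, edgeR adjusted p = 5.48e-04) and Cd68, Lyz2, Ptprc and Marco were not called. The 6 endothelial markers summed to 0.125 to 0.536 CPM and 1.37 to 2.18 CPM, and among them Cdh5 had 7 counts against 71. Of the others, Tek had 3 against 0, Kdr 1 against 0, Pecam1 9 against 15, Stab2 3 against 4 and Lyve1 0 against 1. None of those was called without the filter. The adipocyte list summed to 1.29 to 2.15 and 0.385 to 1.64 CPM, with Lep at 0 and 1 count of Adipoq. That sum was mostly Cidec (1.45 and 0.851 CPM, not called). The stellate list summed to 3.68 to 5.68 and 9.85 to 17.4 CPM, with Lrat at 0. It was mostly Des (3.95 and 11.3 CPM), which was called higher, as was Col1a1 (0.802 and 1.87 CPM). Col1a1 had 9, 18, 6 and 14 counts in controls and passed the count filter only through the overexpression libraries, where it is high. Its test is therefore not independent of that filter. The part of these markers in the Cd36 difference was not tested, and in bulk RNA fewer cells of a type cannot be told apart from less RNA per cell.

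Slc27a4, a transporter and synthetase of the endoplasmic reticulum, fell. Slc27a4 was at 75.2, 66.1, 46.9 and 81.3 CPM in controls, and at 47.9, 48.8, 44.6 and 44.8 CPM in overexpression libraries. Control library 3 lay within the overexpression values and the other 3 controls lay above all of them. The mean went from 67.4 ± 15 to 46.5 ± 2.15 CPM (SD, n = 4), 1.45-fold lower, for a fitted log2 fold change of -0.53 (SE 0.15, edgeR adjusted p = 0.00838). It was -0.70 without control library 3 and -0.21 with the trend on GC content removed, and it stayed past the threshold in both (edgeR, adjusted p = 9.96e-07 and 0.0262, the former the lowest of 18 alternatives and the highest being 0.0286).

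Slc27a1, the insulin-responsive transporter best known from muscle and fat, was not called. Slc27a1 was at 34.4, 26.7, 22.5 and 35.3 CPM in controls, and at 34.4, 35.2, 43.6 and 38.2 CPM in overexpression libraries. The groups overlapped, with controls 1 and 4 beside overexpression libraries 1 and 2. The fitted log2 fold change was 0.35 (SE 0.16, 95% interval 0.01 to 0.69, edgeR adjusted p = 0.0634). It passed in 5 of 18 alternatives, among them scaling by library totals alone, where the median of all genes shifted by 0.13 (log2 fold change 0.49, edgeR, adjusted p = 0.00956), leaving out control library 4 (0.44, adjusted p = 0.0278) and removing the trend on GC content (0.67, adjusted p = 5.97e-05). The highest adjusted p, 0.355, came with the trend on gene length removed, where the log2 fold change was 0.18.

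Slc27a2, the very-long-chain synthetase and main liver transporter of the family, had 1 count among all controls and 0 with overexpression. A count of 0 allows up to 0.0548 CPM there (3 counts over the group), and at this depth a difference could not be detected. Slc27a5, the bile acid and fatty acid synthetase of liver, had 0 and 3 counts.

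The less studied relatives moved in both directions. Slc27a3, a synthetase with weak transport activity, rose from 2.11 ± 0.507 to 4.72 ± 0.884 CPM (SD, n = 4; fitted log2 fold change 1.16 with SE 0.22). Slc27a6, best known from heart, fell from 4.4 ± 0.791 to 1.87 ± 0.471 CPM (log2 fold change -1.24, SE 0.23). Both passed in edgeR's quasi-likelihood test (adjusted p = 6.24e-04 and 5.13e-04). As a share of the summed family level in CPM per kilobase of exon, Slc27a4 made up 60.9% to 68.5% in controls and 50.3% to 56% in overexpression libraries, and Slc27a1 20.6% to 23.3% and 29.8% to 37.2%. These shares did not overlap between the groups although the CPM of both genes did. Which of the pair led in overexpression libraries depended on length, since per kilobase of the principal transcript Slc27a1 held 48.5 ± 3.96% and Slc27a4 41.2 ± 2.77% (SD, n = 4). A share within a library does not depend on how libraries are scaled, and it is given as a description with no test. The shares of a family add up to a fixed total, so they are not separate results.

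The fatty acid-binding proteins showed the widest difference among the tested members. Fabp5, the epidermal-type carrier, was at 95.6, 78.9, 61.4 and 84.3 CPM in controls, and at 6.43, 6.66, 4.53 and 5.95 CPM in overexpression libraries. The lowest control was far above the highest overexpression library. The mean went from 80 ± 14.2 to 5.89 ± 0.955 CPM (SD, n = 4), 13.5-fold lower, for a fitted log2 fold change of -3.75 (SE 0.17, 95% interval -4.13 to -3.37, edgeR adjusted p = 1.66e-08). Of all genes tested, 9.02% were called and at least 2-fold lower, and among the members Fabp5 was the only one. Over 18 alternatives its log2 fold change lay between -3.88 and -3.61. The annotation holds 1 pseudogene named after it, Fabp5l2, so its counts are uncertain to the extent that reads were shared. Macrophages also make Fabp5, and of their 8 markers Csf1r was called lower, Itgam was called higher, 4 were not called and Adgre1 and Clec4f were at 0, as given above. The part of these markers in the Fabp5 difference was not tested.

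Fabp1, the liver-type carrier that is among the most abundant cytosolic proteins of hepatocytes, had 0 counts in all 8 libraries. That allows up to 0.0508 CPM in controls and up to 0.0548 CPM with overexpression (3 counts over each group), and no difference was detectable. Fabp1 lies on chromosome 6 from 71199827 to 71205023 (GRCm38, plus strand). The stretch just before its first annotated exon is shown because it is the liver-type gene with no reads. It covers chr6:71199629-71199826 on the plus strand, is taken from RefSeq's GRCm38.p6 promoter table and is written 5′ to 3′, with capitals marking TGACCT, the reverse of the nuclear receptor half-site AGGTCA.
Fabp1: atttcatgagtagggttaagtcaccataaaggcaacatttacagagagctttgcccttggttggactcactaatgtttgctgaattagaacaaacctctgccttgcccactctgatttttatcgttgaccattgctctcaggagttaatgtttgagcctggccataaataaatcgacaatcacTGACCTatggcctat
The 250 bases before the RefSeq start of Fabp1 held 2 half-sites, counting both strands, 1 TATAAA and no GGGCGG. Half-sites were in 14% of the 32536 such windows in the table, and TATAAA in 12.3%, searching both strands. The exact direct repeat of AGGTCA with 1 base between its copies was in none of the members' windows and in 0.0338% of all. Repeats with a mismatch were not searched for, so the windows, that of Fabp1 among them, may hold inexact copies. A match describes letters only.

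Fabp7, the brain-type carrier, rose, and it took a large part of what FABP signal was left. Fabp7 had 0, 4, 4 and 0 counts in controls and 22, 61, 63 and 54 in overexpression libraries, or 0.116 ± 0.135 against 3.69 ± 1.5 CPM (SD, n = 4; fitted log2 fold change 4.69 with SE 0.54, edgeR adjusted p = 1.5e-05). Fabp7 was under 10 counts in every control and passed the count filter only through the overexpression libraries, where it is high, so its test is not independent of that filter. The pooled ratio was 26.9 (95% exact binomial interval 13.4 to 63.3). The summed level of the 9 FABP genes went from 80.8 ± 14.1 to 10.3 ± 0.594 CPM (SD, n = 4), with no overlap between the groups. Fabp5 made up 99 ± 0.621% of the family's CPM in controls and 57.7 ± 10.9% in overexpression libraries, and Fabp7 0.167 ± 0.2% and 35.5 ± 13.3%. The order of the pair in overexpression libraries depended on length: per kilobase of union exon Fabp7 led with 52.2 ± 15.3% against 30.8 ± 8.14% for Fabp5, while per kilobase of the principal transcript Fabp5 led with 52.3 ± 11.1% against 39.1 ± 13.7%. The union exons of Fabp5 hold 3567 bases and its principal transcript 987. Of the other relatives, Fabp2, Fabp3, Fabp4, Fabp6 and Fabp9 stayed under the count filter and Fabp12 had no count. Fabp4, the adipocyte and macrophage carrier, had 3 counts against 0.

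**Figure D2:**
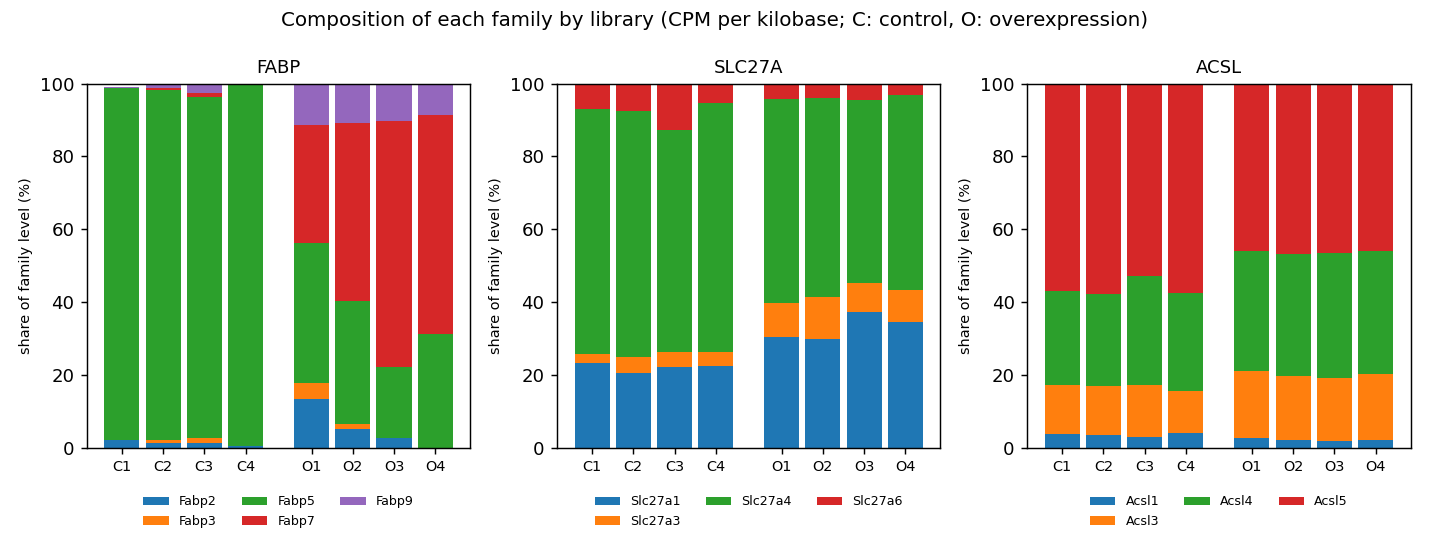
Share of each gene in the summed level of its family, in percent of CPM per kilobase of union exon, with 1 stacked bar per library (C1 to C4 control, O1 to O4 overexpression) and genes under 1% in every library left out. Fabp5 fills 93.6% to 99.2% of the FABP bar in controls and 19.5% to 38.6% in overexpression libraries, and the Acsl5 share is smaller in every overexpression library than in every control.

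The long-chain acyl-CoA synthetases moved apart: Acsl3 and Acsl4 rose, Acsl1 fell and Acsl5 was not called. Acsl3, which sits at the endoplasmic reticulum and on nascent lipid droplets, was at 133.3, 148.1, 209.7 and 105.2 CPM in controls, and at 238.5, 239.8, 245.2 and 261.6 CPM in overexpression libraries. Every overexpression value lay above every control, with control library 3 closest. The mean went from 149.1 ± 44.2 to 246.3 ± 10.6 CPM (SD, n = 4), 1.65-fold higher (log2 fold change 0.72 with SE 0.17, edgeR adjusted p = 0.00256). Acsl4, which prefers arachidonate and other polyunsaturated fatty acids, was at 319.6, 340.2, 551.9 and 309.6 CPM in controls, and at 532.5, 562.9, 601.5 and 604.9 CPM in overexpression libraries. Control library 3 lay above overexpression library 1, and the other controls lay well below all 4. The mean went from 380.3 ± 115.1 to 575.5 ± 34.4 CPM (SD, n = 4), 1.51-fold higher (log2 fold change 0.60 with SE 0.17, edgeR adjusted p = 0.00755). Without control library 3 the log2 fold changes of Acsl3 and Acsl4 were 0.90 and 0.80. They were 0.37 and 0.21 with the trend on GC content removed, still past the threshold (edgeR, adjusted p = 0.00125 and 0.0479). The alternatives spanned adjusted p values of 5.42e-09 to 0.0121 for Acsl3 and 4.16e-09 to 0.0479 for Acsl4 (edgeR, DESeq2 and limma).

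Acsl3 (chromosome 1, 78657825 to 78707743, plus strand) and Acsl4 (chromosome X, 142317993 to 142390535, minus strand) are the pair that rose together, and the 250 bases before their first annotated exons are shown for comparison with those of Fabp1. They cover chr1:78657575-78657824 on the plus strand and chrX:142390536-142390785 on the minus strand (RefSeq, GRCm38.p6), and capitals mark GGGCGG (the GC box, or CCGCCC in reverse) and CCAAT.
Acsl3: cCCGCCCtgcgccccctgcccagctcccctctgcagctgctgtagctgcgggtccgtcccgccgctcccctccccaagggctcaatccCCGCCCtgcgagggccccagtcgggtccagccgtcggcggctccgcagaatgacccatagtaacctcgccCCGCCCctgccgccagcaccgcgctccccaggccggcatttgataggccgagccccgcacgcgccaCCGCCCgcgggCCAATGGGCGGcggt
Acsl4: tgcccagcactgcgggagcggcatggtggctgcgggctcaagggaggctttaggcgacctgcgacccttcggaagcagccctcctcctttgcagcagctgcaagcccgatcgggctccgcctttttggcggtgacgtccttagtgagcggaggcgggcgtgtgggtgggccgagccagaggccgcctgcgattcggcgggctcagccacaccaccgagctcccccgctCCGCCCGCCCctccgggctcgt
Acsl3 held 5 GC boxes and 1 CCAAT and Acsl4 held 2 GC boxes that overlap each other. GC made up 75.6% and 70.8% of these bases, against 41.4% in the stretch printed for Fabp1. Members that fell had GC boxes too. Acsl1 had 4 at 72% GC in its first window and 0 at 48.4% in its second, and Slc27a4 had 2 at 54.4%. Acsl5, which was not called, had 0 at 52.8%. A tie between these letters and the differences was not tested. A GC box was in 33% of all windows of this length and CCAAT in 33.8%, counting both strands. Promoter entries were found for 9 of 10 members, and Fabp5 has no entry in the table.

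Acsl1, the main synthetase of adult liver, fell. It was at 88.5, 89.8, 105.2 and 90 CPM in controls, and at 83.1, 73.1, 64.7 and 69.8 CPM in overexpression libraries. Every control lay above every overexpression library, and control library 3 was the highest. The mean went from 93.4 ± 7.92 to 72.7 ± 7.78 CPM (SD, n = 4), 1.29-fold lower (log2 fold change -0.36 with SE 0.11, edgeR adjusted p = 0.014). The call was lost with scaling by library totals alone (log2 fold change -0.24, edgeR, adjusted p = 0.108, the highest of 18 alternatives) and without overexpression library 3 (-0.31, adjusted p = 0.0571). The difference was wider with the trend on gene length removed (-0.85, adjusted p = 1.68e-05, the lowest of the alternatives) or that on GC content (-0.68), and widest with both removed and the replicate block (-1.06). Acsl1 has 10483 bases of union exon, the length used for that trend, against 3897 in its principal transcript. Of the union exon bases, 9.91% overlap Gm45244 on the opposite strand.

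Acsl5, a synthetase of mitochondria and the endoplasmic reticulum in liver and gut, had the highest level of the members in both groups, per length as well as in CPM. Acsl5 was at 629.1, 701.1, 870.4 and 594.9 CPM in controls, and at 663.3, 709, 738.4 and 739 CPM in overexpression libraries, so the groups overlapped. The fitted log2 fold change was 0.03 (SE 0.13, 95% interval -0.25 to 0.30, edgeR adjusted p = 0.859). Acsl5 shares 404 exon bases (8.31%) with Zdhhc6 on the opposite strand and Acsl3 shares 244 (5.6%) with Utp14b on the same strand, so a few of their reads may be assigned either way. Acsl6 had 5 counts against 3.

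Per kilobase of union exon the order in both groups was Acsl5, Acsl4, Acsl3 and Acsl1. The levels were 143.7 ± 25.2, 70.4 ± 21.3, 34.2 ± 10.1 and 8.91 ± 0.756 CPM per kilobase in controls and 146.5 ± 7.32, 106.5 ± 6.37, 56.5 ± 2.44 and 6.93 ± 0.742 in overexpression libraries (SD, n = 4), and within each group the 4 ranges did not overlap. Fabp5, at 22.4 ± 3.99 CPM per kilobase in controls, came between Acsl3 and Slc27a4 (15.3 ± 3.4), whose range of 10.6 to 18.4 overlapped its own of 17.2 to 26.8. The place of Fabp5 rests on its length: per kilobase of the principal transcript it was at 81.1 ± 14.4 in controls, beside Acsl4 at 72 ± 21.8, and the ranges of 62.2 to 96.8 and 58.6 to 104.5 overlapped. In overexpression libraries Fabp5 was at 1.65 ± 0.268 CPM per kilobase of union exon, below Slc27a4 (10.5 ± 0.487), Acsl1 and Slc27a1 (6.48 ± 0.712), the last of which overlapped each other in range. The place of Acsl1 rests on its length as well. Per kilobase of the principal transcript it lay above Slc27a4, at 24 ± 2.03 against 16.6 ± 3.7 in controls. With overexpression the values were 18.6 ± 2 and 11.5 ± 0.53. On that length the control ranges of Acsl1 (22.7 to 27) and Acsl3 (26.6 to 53.1) overlapped. Cd36 was lowest of the 8 genes with more than 1 count, at 0.0886 ± 0.0384 and 0.251 ± 0.0848 CPM per kilobase of union exon.

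Within the ACSL family, the share of Acsl5 went from 56.2 ± 2.36% to 46.3 ± 0.457% of CPM per kilobase (SD, n = 4). That of Acsl4 went from 27.1 ± 2.14% to 33.6 ± 0.479%, that of Acsl3 from 13.2 ± 1.23% to 17.9 ± 0.501% and that of Acsl1 from 3.54 ± 0.46% to 2.2 ± 0.339%. None of the 4 shares overlapped between the groups. The shares of a library add up to a fixed total, so they are not separate results, and no background was computed for them. Acsl5 itself was at 698.9 and 712.4 CPM on average and was not called. Control library 3 was the control closest to the overexpression libraries for all 4 shares, at 52.7% for Acsl5, 30.1% for Acsl4, 14.2% for Acsl3 and 2.96% for Acsl1. The summed ACSL level averaged 1322 ± 286.9 CPM in controls against 1607 ± 70.8 CPM with overexpression (SD, n = 4), and the groups overlapped through control library 3 at 1738 CPM.

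**Figure D3:**
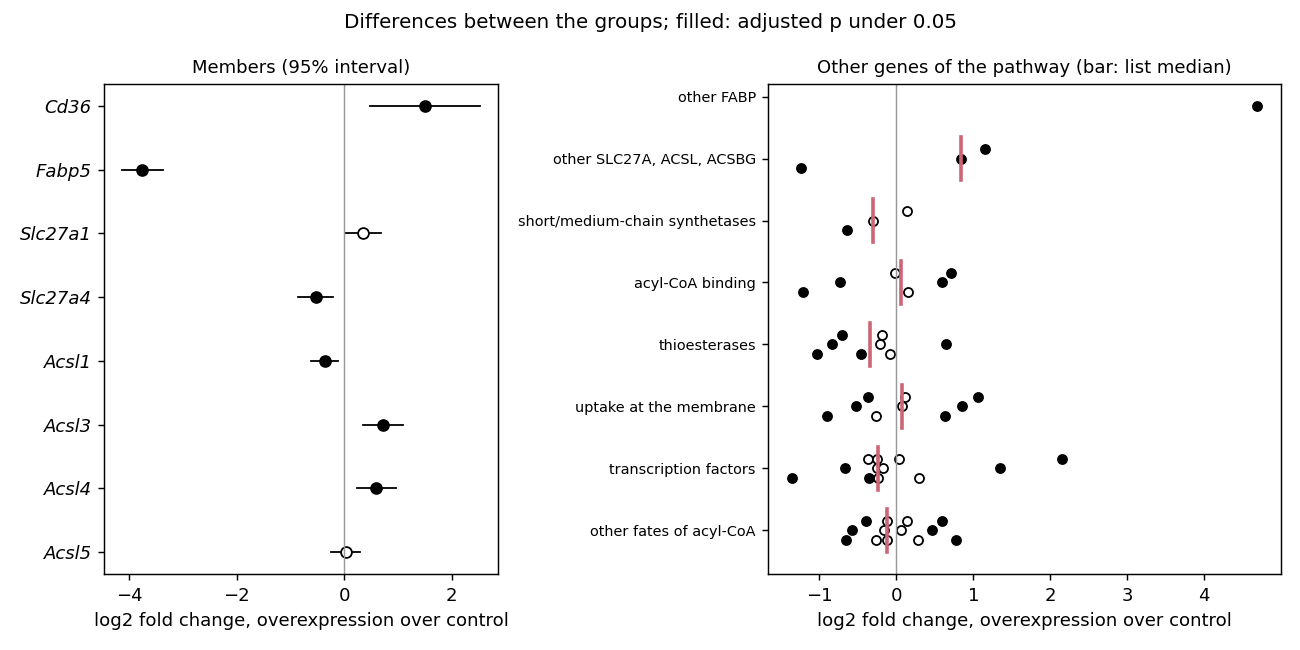
Log2 fold change of overexpression over control for 8 members with their 95% intervals (left) and for the tested genes of 8 lists of related genes (right), filled where the adjusted p was under 0.05, with a bar at the median of each list of more than 1 gene. Fabp5 at -3.75 and Fabp7 at 4.69 lie farthest from 0, on opposite sides.

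Around these steps, 8 lists of related genes held 82 genes, of which 55 were tested and 31 (56.4%) were called, 14 higher and 17 lower, beside 64.4% of all genes tested. Acyl-CoA-binding proteins, which buffer the product of the synthetases, changed for 4 of 6 tested (2 higher, 2 lower, median log2 fold change 0.07). Dbi, the main soluble acyl-CoA-binding protein, fell from 174.2 ± 20.6 to 75 ± 2.92 CPM (log2 fold change -1.21, but -0.62 after a correction for gene length and -0.42 with both trends removed and the block, called in both), and Acbd6 fell as well (-0.73). Acbd3, a Golgi scaffold, and Acbd5, a tether between peroxisomes and the endoplasmic reticulum, rose (0.71 and 0.59), the Acbd5 call being lost after a correction for gene length and its value turning to -0.07 with both trends removed and the replicate block. Thioesterases, which undo the activation, fell for 4 of 8 tested and rose for 1 (median -0.34). Over 18 alternatives that median ran from -0.507 to 0.0575, so its sign was not kept in all. Acot13, of mitochondria, fell from 52.4 ± 7.66 to 25.6 ± 2.87 CPM (log2 fold change -1.03, but -0.14 and not called after a correction for gene length), Acot7 from 209.7 ± 49.1 to 117 ± 1.91 CPM (-0.84, but -0.21 with both trends removed and the block, still called) and Acot9 (-0.70) fell as well. The remaining thioesterase that fell, named after its value was seen, was Acot1 (-0.46). In turn, Them4 rose (0.64, but 0.27 and not called after a correction for GC content). Of short- and medium-chain synthetases only 3 of 10 were tested and Acsf3, the malonyl-CoA synthetase of mitochondria, fell (-0.63). Acsbg1, a bubblegum-type very-long-chain synthetase, rose from 2.3 ± 0.563 to 4.14 ± 0.69 CPM (0.84). The fold changes of this paragraph are from edgeR's quasi-likelihood test with SD over n = 4.

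Other proteins tied to uptake at the plasma membrane rose for 3 and fell for 3 of 9 tested (median log2 fold change 0.07). That is 66.7% called, beside 64.4% of all genes tested. Prkaa1, a catalytic subunit of the energy sensor AMPK, rose from 72.3 ± 23.6 to 150.8 ± 5.15 CPM (SD, n = 4; 1.06), Lyn, a kinase known to act on CD36, rose (0.85), and Cav1, caveolin, rose (0.63). Got2, the mitochondrial aminotransferase also described as a plasma membrane fatty acid-binding protein, fell from 288.4 ± 51.7 to 154.8 ± 14.9 CPM (-0.90), and Cav2 (-0.52) and the palmitoyltransferase gene Zdhhc4 (-0.36) fell too. Downstream of activation, 3 of 13 tested genes rose and 3 fell, 46.2% called beside the same 64.4%. Their median was -0.12, and it ran from -0.145 to 0.16 over 18 alternatives. Cpt1a, which admits acyl groups to mitochondria, rose from 213.9 ± 11.4 to 366.5 ± 23.2 CPM (0.78), as did Gpam, the first step of glycerolipid synthesis (0.60), and Elovl5, a fatty acid elongase (0.46). Scd1, the stearoyl-CoA desaturase, fell from 487.3 ± 34.9 to 328.4 ± 22.4 CPM (-0.57), and Agpat2, of glycerolipid synthesis (-0.65), and Acadvl, the very-long-chain dehydrogenase of oxidation (-0.40), fell too. Calls close to the threshold were lost in several alternatives: 13 of 18 for Zdhhc4 (7 single libraries left out among them, -0.41 to -0.28), 7 for Acadvl (-0.39 to -0.35 without control 1, overexpression 2 or 3) and 5 for Elovl5 (0.37 to 0.43 without control 1, 2 or 4 or overexpression 4). Zdhhc4 and Acadvl turned to 0.11 and 0.09 with both trends removed and the replicate block. Agpat2 was not called with the trend on gene length removed (-0.24) or with both removed and the block (-0.04). Cav1 was not called with the trend on GC content removed (0.23).

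Transcription factors known to act on these genes were called for 5 of 12 tested (41.7%), beside 64.4% of all genes tested. Of these, 2 were higher and 3 lower. The median log2 fold change of the list was -0.24, and it ran from -0.286 to 0.0505 over 18 alternatives. Ahr, the dioxin receptor, rose from 12.6 ± 1.16 to 56.1 ± 9.79 CPM (SD, n = 4, fitted log2 fold change 2.15). Nr1i2, the pregnane X receptor, rose from 3.15 ± 0.444 to 8 ± 1.75 CPM (1.35). The part of the listed factors in the differences of the members was not tested. Nr1h3, the sterol receptor LXR-alpha, fell from 67.3 ± 12.4 to 26.2 ± 2.67 CPM (-1.36), and Rxrb, a partner receptor, fell (-0.66). Ppard also fell (-0.36), a call lost in 8 of 18 alternatives, 5 of them single libraries left out (-0.36 to -0.26 without control 1 or 4 or overexpression 1, 3 or 4). Ppara, the fatty acid receptor that drives Fabp1 and Acsl1 in liver, was not called (log2 fold change 0.30 with SE 0.26, edgeR adjusted p = 0.332). Hnf4a, another activator of Fabp1, was not called either (-0.17, SE 0.10, adjusted p = 0.15 by edgeR).

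Genes with the most similar profiles were sought for the member with the largest rise and the one with the largest fall, by the root mean square distance between centred log2 profiles over the 8 libraries, among 11243 other tested genes. For Acsl3 they were Rbbp8, Pcmtd2 and Zbtb33, at distances of 0.03, 0.03 and 0.05 and with log2 fold changes of 0.73, 0.78 and 0.70. For Fabp5 they were Fam57b, Ogdhl and Tead2, at 0.16, 0.21 and 0.23 and with log2 fold changes of -6.07, -4.77 and -5.40. Distances were taken on log2(CPM + 0.5), and these 3 genes lay below 0.5 CPM in overexpression libraries, so the added 0.5 compressed their differences to -3.79, -3.55 and -3.72 on that scale, beside -3.65 for Fabp5. Their likeness to Fabp5 therefore rests in part on that offset. These 3 genes passed the count filter only through the controls, where they are high, so their tests are not independent of that filter. For both members, neighbours were chosen on profiles that hold the group difference. Fold changes in the member's direction therefore follow from the choice and are a description only. The annotated span of Fam57b overlaps that of Aldoa, which makes its counts uncertain. The Rbbp8 value turned to -0.10 with both trends removed and the replicate block.

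**Figure D4:**
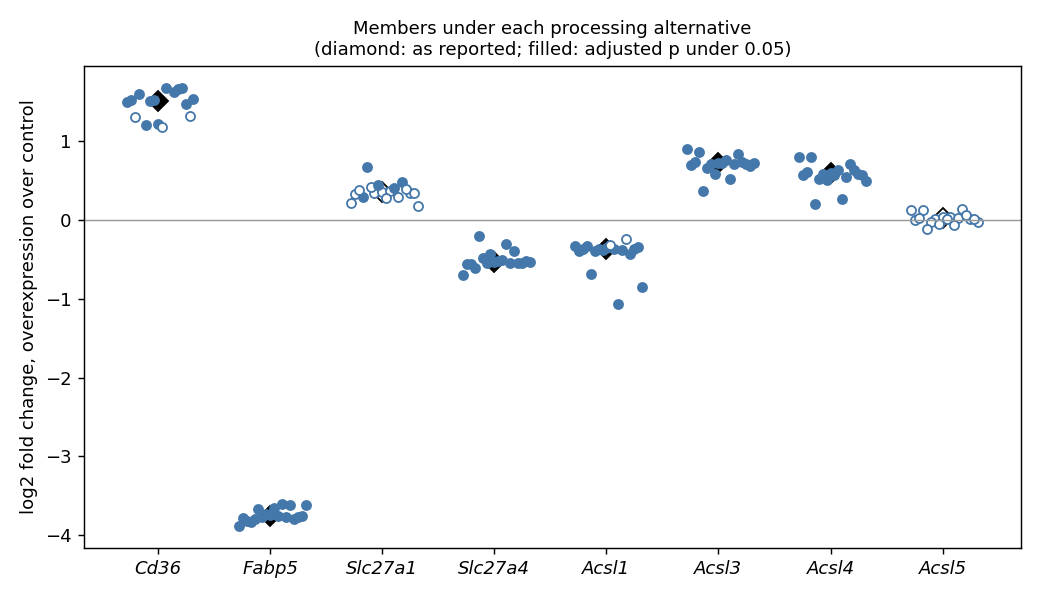
Log2 fold change of each of 8 members under every processing alternative (points, spread sideways only to separate them) and as reported (diamond), filled where the adjusted p was under 0.05. Fabp5 stays between -3.88 and -3.61, while Acsl5 lies between -0.11 and 0.15 and is open in all.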

How the data were processed

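RNA-seq was measured in 8 libraries of AML-12 cells. Raw counts for each gene symbol were deposited by the authors as 1 table, for which the submitters' processing notes list FastQC, STAR, HTSeq and mm10, naming no version, annotation or strand setting. Titles gave the groups and library numbers.

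The members and gene lists were chosen with earlier results of these data known. The 10 members were named, with up to 3 called genes of smallest p in each direction from each list and the 3 genes nearest in profile (log2 of CPM + 0.5, mean of at least 1 CPM) to the members with the largest called rise and fall.

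The analysis used edgeR 4.0.16 under R 4.3.3. filterByExpr (minimum count 10) kept 11520 of 16281 genes with a count. After trimmed-mean scaling, groups were compared by the quasi-likelihood test (two-sided, no covariate) and called at a Benjamini-Hochberg adjusted p under 0.05. Members under the filter came from the same fit without it. Standard errors followed from the fold change and its F statistic, and intervals used the test's degrees of freedom. Alternatives included DESeq2 1.42.0 and limma 3.58.1; trends on length and GC content were lowess fits (span 0.3). Lengths and positions came from GENCODE M21 (GRCm38, the assembly mm10 names), which matched 21926 of 21983 symbols. The test was checked on simulated data in which few genes differed, as many up as down, and no library stood apart. That check does not cover differences as wide as those here, or trends on length and GC content. Libraries of a group differed by a chi-square of 2.41 to 102 per gene, so none matched within counting noise. Intervals and limits for counts of 0 cover counting error only. Figures used matplotlib 3.10.9.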

Additional observations from a re-analysis of the deposited data

Results flagged for a closer look

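In 7 of 86 groups of 4 values examined, 1 library lay far from the other 3 relative to the group's range. Chance gives about 5% of groups, and 6 of the 7 are control library 3. Acsl1 was at 105.2 CPM in control library 3 and at 88.5 to 90 CPM in the other controls, farther from the overexpression libraries. Acsl4 was at 551.9 CPM there and at 309.6 to 340.2 CPM in the other controls, within the overexpression range. The same library had 68.1 CPM for Acbd3 (others 40.9 to 43.7), 107.3 CPM for Prkaa1 (57.5 to 64.6), 126.7 CPM for Gpam (95.1 to 100.4) and 137.7 CPM for Elovl5 (80.4 to 89). Nr1i2 was at 5.4 CPM in overexpression library 1 and at 8.64 to 9.24 CPM in the other overexpression libraries.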

How the results depend on the processing

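The count of genes called stayed within 1.5 times of 7417 in all 18 alternatives (6659 to 9001), with 58.3% of calls higher under library totals alone against 50.2%. Fabp5, Slc27a4, Acsl3 and Acsl4 kept their direction and call in all 18. Slc27a1 passed with library totals alone (log2 fold change 0.49), limma-voom with quality weights (0.29), the trend on GC content removed (0.67) and both trends removed with the replicate block (0.41). Leaving out each library gave 0.21 to 0.44 for Slc27a1, -0.435 to -0.31 for Acsl1, -0.0472 to 0.12 for Acsl5 and 1.21 to 1.68 for Cd36. Acsl1 was not called with library totals alone (-0.24), nor Cd36 with the GC trend removed (1.19) or both trends with the block (1.32). Acsl5 turned to -0.0216, -0.11 and -0.0682 with the length trend, the GC trend or both removed. With both removed and the block, Acbd5, Zdhhc4, Acadvl and Rbbp8 turned to -0.0657, 0.11, 0.0928 and -0.10, and 26 of 36 named genes outside the members kept their call in all alternatives. The cause of these changes was not tested. The changes in family share without division by length and per principal transcript were -41.3 and -46.5 percentage points for Fabp5 (-65.6 as reported), 35.3 and 38.9 for Fabp7 (51.7), 3.11 and 4.33 for Slc27a3 (5.7) and -2.66 and -2.95 for Acsl1 (-1.33). Same-numbered libraries did not deviate together (correlations -0.104 to 0.0224, beside -0.0649 to 0.115 for libraries of different number). With 4 libraries in a group and control library 3 apart, this check cannot settle whether the numbers pair them. The replicate block gave 7129 calls and changed no member's call, while Zdhhc4 (-0.34) and Ppard (-0.35) were no longer called. Cd36, Slc27a2 and Fabp1 are limited by depth.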

Other observations

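Several genes around fatty acid activation were under the count filter but had unequal counts, and they were picked out after their values were seen. Acot4, a peroxisomal thioesterase, had no count in controls and 15 with overexpression, and the lower 95% exact binomial limit of the ratio was 3.87. Acss3, a mitochondrial short-chain synthetase, had 3 and 48 counts, a ratio of 17.2 (95% exact binomial interval 5.56 to 86.6). Them5, a thioesterase of mitochondria, had 18 and 52 counts (ratio 3.11, interval 1.79 to 5.66), and Acsm3, a medium-chain synthetase, 21 and 42 (2.16, 1.25 to 3.83). Acot11, a thioesterase linked to brown fat, had 51 and 8 (0.169, 0.0693 to 0.359), and Ppargc1b, a coactivator of mitochondrial genes, 30 and 8 (0.287, 0.114 to 0.642). The intervals cover counting error only.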
